A study of Rattus norvegicus with 10 samples.

Results

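The opioid system of sensory neurons was described here through 8 genes: the 4 opioid receptor genes Oprm1, Oprd1, Oprk1 and Oprl1 and the 4 precursor genes Penk, Pdyn, Pomc and Pnoc. They were taken by gene name from a table of 30560 genes, in which each name had 1 row. Of the 8, 7 had enough counts to be tested and Pdyn did not. The tissue was the L6 dorsal root ganglion, where the cell bodies of sensory neurons lie, from Sprague Dawley rats aged 7 to 8 weeks that all carried a lumbar intrathecal catheter and had received meloxicam SR, a sustained-release anti-inflammatory analgesic. The 5 control samples came from rats given phosphate-buffered saline (PBS) at a siRNA dose of 0 mg, and the 5 treated samples from rats that received SCN9A_2544, a siRNA of divalent form directed at Scn9a, at 0.75 mg. Dosing took place 5 days after the catheter was placed, and there was no group with a non-targeting siRNA among the samples. Every sample carries a timepoint of 14 days, and the labels do not say from which event it counts. The labels speak of replicates and do not state that each came from its own rat; a p-value therefore reflects only how these samples varied, and some of that variation may be technical.

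Opioid receptors are coupled to inhibitory G proteins: when activated they close presynaptic calcium channels, open inwardly rectifying potassium channels and lower cyclic AMP, which quiets the neuron. Oprm1, Oprd1, Oprk1 and Oprl1 encode the mu, delta, kappa and nociceptin receptors. Their peptides are cut from larger precursors: enkephalins from Penk, dynorphins from Pdyn, beta-endorphin from Pomc and nociceptin from Pnoc. Scn9a encodes Nav1.7, and in mice that lack this channel a higher Penk level in sensory neurons has been described, which is why the question of Penk after Scn9a silencing arises.

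For Penk and the other 6 tested opioid genes, no difference between SCN9A_2544 and PBS ganglia beyond the spread between libraries was detected, and the intervals given with each gene show which sizes of change remain possible. By edgeR's quasi-likelihood test 0 of the 7 tested members passed an adjusted p of 0.05, against 0% of the 15186 genes tested, and 0 of the 7 had an unadjusted p under 0.05, against 4.23% of all genes. DESeq2 also passed 0 of the 7, against 0.0791% of the genes for which it gave an adjusted p, and 0 of the 7 had an unadjusted p under 0.05 by that tool, against 5.37%. The groups overlapped for all 8 members, whereas they did not overlap for 0.665% of the tested genes. The log2 fold changes of the 4 receptor genes lay between 0.10 and 0.78, and those of the 3 tested precursor genes between -0.18 and 0.71, with a median of 0.02 over all tested genes.

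The siRNA target separated the same libraries. Scn9a ranged from 132 to 257 CPM (estimated counts brought to a shared library size with TMM factors) in PBS libraries and from 44.6 to 103 CPM in treated libraries, so the groups did not overlap. On the log2 scale it differed by -1.03 (SE 0.25) and did not pass over all genes (edgeR adjusted p = 0.963). In a model that also held the mean of 20 pan-neuronal genes, the estimate was -1.12 and passed (edgeR adjusted p = 0.0180).

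Library totals lay between 11832376 and 15420006 estimated counts, 3 counts being worth 0.189 to 0.256 CPM, and the 8 opioid genes together held 346 to 986 counts in a library. All 80 member values were exactly whole as deposited (tolerance 0), whereas 0 of the 10 Scn9a values were. All 20 pan-neuronal genes had enough counts to be tested, while 3 of 12 genes listed for spinal cord and central glia did. Whether the transcripts of these 3 came from such tissue or from the ganglion was not tested. These 3 averaged 61.5 and 76.2 CPM (Gfap), 3.39 and 2.40 CPM (Gad1) and 13.0 and 8.93 CPM (Hoxc10) in PBS and treated ganglia, and summed to 35.5 to 118 CPM in PBS and 44.5 to 159 CPM in treated libraries. The other 9 averaged at most 0.698 CPM (Mog in PBS) in either group, with Chat, Gad2, Olig1 and Olig2 at most 0.081 CPM. The libraries differed in their neuronal transcripts within both groups: the mean of the pan-neuronal genes ran from 8.10 to 9.19 log2 CPM in PBS and from 7.79 to 9.19 in treated libraries. The 3 lowest libraries were SCN9A_2544 replicate 3 (7.79), PBS replicate 3 (8.10) and PBS replicate 5 (8.38), and these held the highest means of the Schwann cell and myelin genes, 10.33, 10.15 and 10.05.

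**Figure D1:**
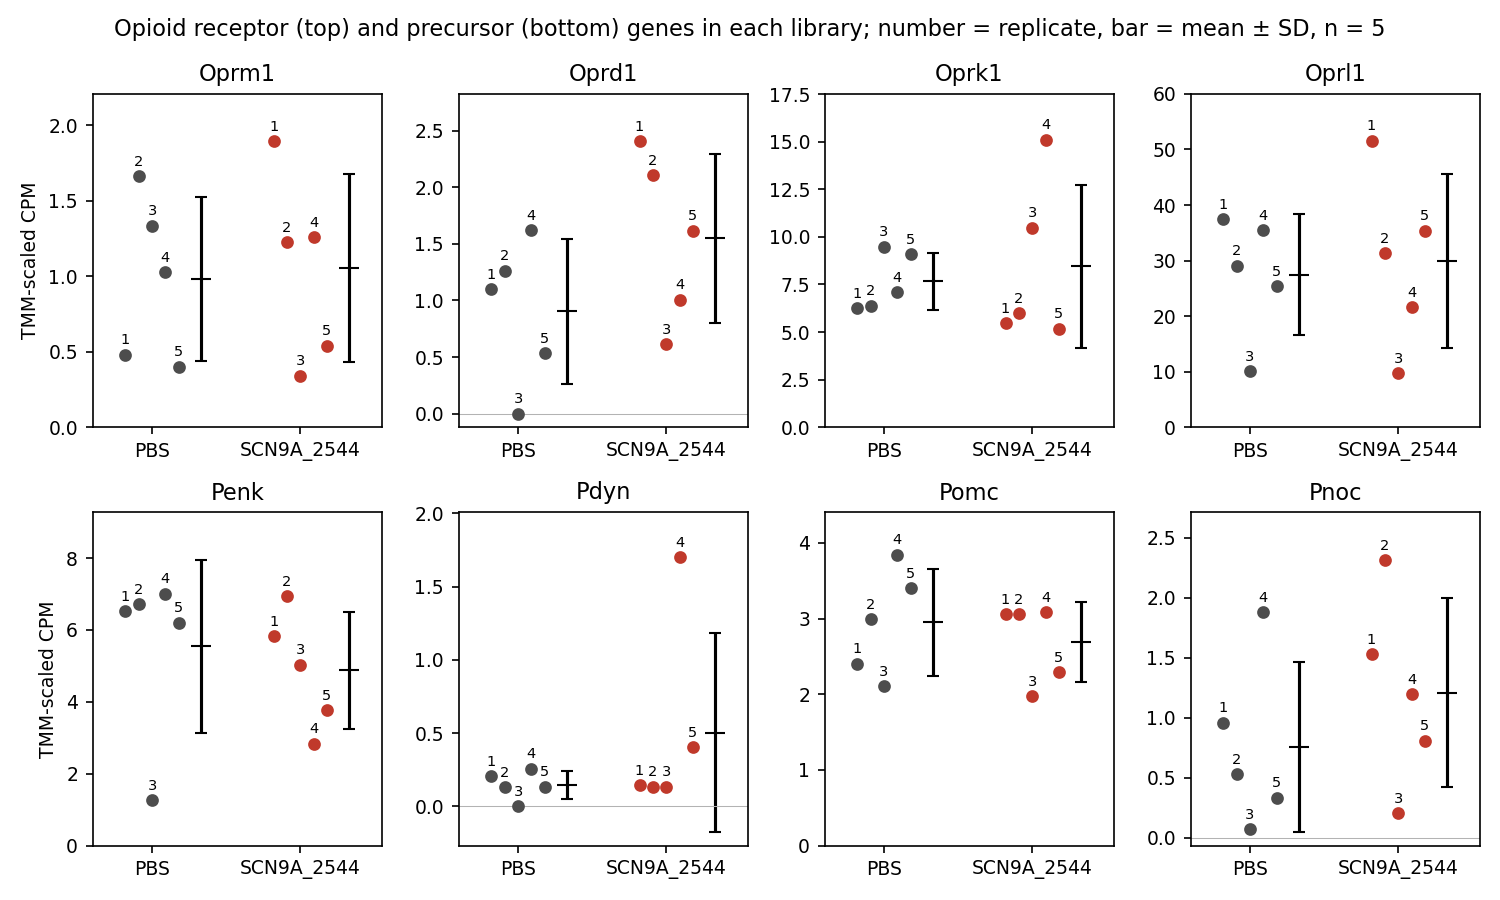
CPM (TMM-scaled, linear axis, own scale per panel) of each opioid gene in each library, grey for PBS and red for SCN9A_2544, with replicate numbers beside the points and the mean ± SD of 5 libraries as a bar. The groups overlap in all 8 panels. PBS replicate 3 is apart from its group for Penk (1.26 CPM), as is SCN9A_2544 replicate 4 for Pdyn (1.70 CPM).

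Penk, the enkephalin precursor gene (ENSRNOG00000008943), stood at 6.52, 6.72, 1.26, 7.00 and 6.21 CPM in PBS replicates 1 to 5. In SCN9A_2544 replicates 1 to 5 it stood at 5.83, 6.94, 5.04, 2.83 and 3.77 CPM. PBS held both the highest and the lowest library, and the treated values lay between them. PBS averaged 5.54 ± 2.41 CPM (SD, n = 5), SCN9A_2544 4.88 ± 1.63 CPM (SD, n = 5). Penk had a log2 fold change of -0.18 (SE 0.40), with an edgeR adjusted p of 0.980. Its 95% interval ran from -1.06 to 0.69, that is from 0.480 to 1.62 times the PBS level. The two-sided exact permutation test of mean log2 CPM gave a difference of -0.04 with p = 0.937.

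The low PBS replicate 3 weighed on the size of the Penk estimate. That library held 18 Penk counts, while the other 4 PBS libraries held 82 to 101. Without it the log2 fold change was -0.44, with an edgeR adjusted p of 1.00. Without SCN9A_2544 replicate 4, the lowest treated library with 45 counts, it was -0.04. Leaving out the 3 libraries poorest in pan-neuronal transcripts, which was decided with the data in view, gave -0.50. The estimate lay below 0 in every one of the 20 alternatives, DESeq2 and limma voom among them, and 0 of them passed. These alternatives refit largely the same libraries. The difference in mean log2 CPM turned its sign in 6 of 10 runs with 1 library left out, from -0.49 to 0.13, so no direction can be given for Penk.

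Pomc, whose precursor yields beta-endorphin and the melanocortins (ENSRNOG00000012686), had the narrowest interval of the 7 tested members. It stood at 2.40, 2.99, 2.11, 3.84 and 3.40 CPM in PBS replicates 1 to 5. In the treated replicates it stood at 3.06, 3.06, 1.97, 3.09 and 2.29 CPM. These values span less than 2 CPM over all 10 libraries, and 4 of the 5 treated values fall within the PBS range. For Pomc the log2 fold change was -0.13 (SE 0.24), with a 95% interval from -0.66 to 0.41 and an edgeR adjusted p of 0.976. With 1 library left out it ran from -0.23 (without PBS replicate 3) to -0.02 (without PBS replicate 4).

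Pnoc encodes the precursor of nociceptin (ENSRNOG00000014231). It stood at 0.961, 0.532, 0.0703, 1.88 and 0.334 CPM in PBS replicates 1 to 5, on 1 to 22 counts. In the treated replicates it stood at 1.53, 2.31, 0.204, 1.20 and 0.808 CPM, on 3 to 34 counts. Replicate 3 was the lowest library of both groups. The Pnoc estimate was 0.71 (SE 0.69) on the log2 scale, and its 95% interval from -0.80 to 2.21 covered both a fall and a rise of over 1.5-fold, with an edgeR adjusted p of 0.964. Without PBS replicate 4 the log2 fold change was 1.33 and without SCN9A_2544 replicate 2 it was 0.33, neither of which passed. By limma voom with library weights it was 1.43, with an unadjusted p of 0.0213 and an adjusted p of 0.191. In that fit 3175 of the 15186 tested genes had an unadjusted p under 0.05, against 642 by edgeR.

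Pdyn, the dynorphin precursor gene (ENSRNOG00000026036), had at most 3 counts in 8 of the 10 libraries. PBS replicates 1 to 5 held 3, 2, 0, 3 and 2 Pdyn counts. SCN9A_2544 replicates 1 to 5 held 2, 2, 2, 27 and 6. The 27 counts of replicate 4 were 55.1% of the 49 Pdyn counts in the series and corresponded to 1.70 CPM, against at most 0.404 CPM elsewhere. With no filter on low counts the log2 fold change was 1.75 (SE 0.86), with an edgeR adjusted p of 0.795. Without that library the treated group held 12 counts against 10 in PBS, and the log2 fold change was 0.47 (SE 0.76). The exact permutation test over all 10 libraries gave p = 0.206 for a difference of 0.79 in mean log2 CPM.

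SCN9A_2544 replicate 4 also stood out for other transcripts, and their part in its Pdyn count was not tested. It had the highest level of Atf3, a transcription factor gene of injured sensory neurons, at 89.5 CPM, against 9.40 to 36.6 CPM in PBS and 14.0 to 74.6 CPM in the other treated libraries. Its 10 macrophage markers summed to 347 CPM, against 103 to 166 CPM in PBS and 186 to 281 CPM in the other treated libraries. Its 7 peptidergic nociceptor markers summed to 1880 CPM, against 828 to 1463 CPM in PBS and 534 to 1224 CPM in the other treated libraries. It was also the library with the lowest Penk of its group and the highest Oprk1 of all 10.

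Among the receptors, Oprm1 encodes the mu receptor, the main target of morphine (ENSRNOG00000018191). It stood at 0.481, 1.66, 1.33, 1.02 and 0.400 CPM in PBS replicates 1 to 5, on 6 to 25 counts. In the treated replicates it stood at 1.90, 1.22, 0.340, 1.26 and 0.539 CPM, on 5 to 26 counts. Both groups ran over a more than 4-fold range and covered nearly the same values. For Oprm1 the log2 fold change was 0.10 (SE 0.51), with a 95% interval from -1.02 to 1.21 and an edgeR adjusted p of 0.995. Its sign turned in 5 of 20 alternatives, so no direction can be given.

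Oprd1, encoding the delta receptor at which enkephalins act (ENSRNOG00000010531), had the largest log2 fold change of the tested members. It stood at 1.10, 1.26, 0, 1.62 and 0.534 CPM in PBS replicates 1 to 5, on 0 to 19 counts. In the treated replicates it stood at 2.41, 2.11, 0.613, 1.01 and 1.62 CPM, on 9 to 33 counts. A count of 0 in PBS replicate 3 allows up to 3 counts, or 0.211 CPM, by counting error alone. Its estimate was 0.78 (SE 0.64) on the log2 scale, with a 95% interval from -0.61 to 2.18 and an edgeR adjusted p of 0.963. It was above 0 in all 20 alternatives, from 0.40 to 1.09, and passed in 0.

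Set against the pan-neuronal mean of the same library, Oprd1 differed by 0.90 log2 units, treated above PBS (unadjusted p = 0.0397 by the exact permutation test, 1 of 16 such tests of members; it was not adjusted for these). Without PBS replicate 3, the library with no Oprd1 count, that difference was 0.44 with an exact permutation p of 0.0873. In the edgeR model that held the pan-neuronal mean, the log2 fold change of Oprd1 was 0.70 with an adjusted p of 0.600 over all genes. None of the other 7 members reached an unadjusted p under 0.05 in the exact test on this scale.

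Oprk1, encoding the kappa receptor for dynorphins (ENSRNOG00000007647), stood at 6.25, 6.39, 9.48, 7.09 and 9.08 CPM in PBS replicates 1 to 5. In the treated replicates it stood at 5.47, 5.98, 10.5, 15.1 and 5.19 CPM. The treated group held the 3 lowest and the 2 highest libraries, and the PBS group lay between them. For Oprk1 the log2 fold change was 0.14 (SE 0.31), with a 95% interval from -0.53 to 0.82 and an edgeR adjusted p of 0.979. Without SCN9A_2544 replicate 4 it was -0.17, so the sign rested on that library.

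Oprl1, encoding the nociceptin receptor (ENSRNOG00000016768), had 143 to 707 counts per library. It stood at 37.5, 29.1, 10.0, 35.4 and 25.4 CPM in PBS replicates 1 to 5. In the treated replicates it stood at 51.6, 31.3, 9.74, 21.6 and 35.4 CPM. Replicate 3 of each group was lowest by a factor of over 2. For Oprl1 it was 0.12 (SE 0.41), with a 95% interval from -0.78 to 1.03 and an edgeR adjusted p of 0.991. In the model that held the pan-neuronal mean it was -0.07, and its sign turned in 4 of 20 alternatives.

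**Figure D2:**
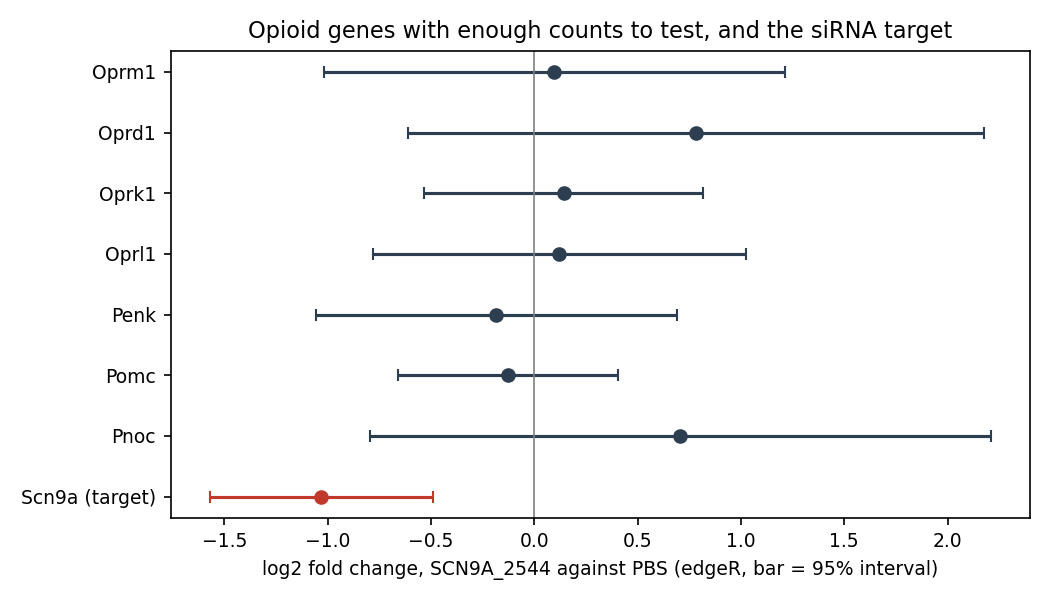
Log2 fold change of SCN9A_2544 against PBS with its 95% interval (edgeR, 5 libraries per group) for the 7 tested opioid genes and, in red, the siRNA target Scn9a. All 7 opioid intervals cross 0, Pomc having the narrowest (-0.66 to 0.41), while the Scn9a point lies at -1.03.

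Within the groups, the levels of 3 members moved with the neuronal transcripts of the library. A slope of each gene on the pan-neuronal mean, with group in the model, was fitted over all tested genes after these data had been seen. Of the 7 tested members 3 had a slope above 0 that passed an adjusted p of 0.05 by edgeR and 0 had one below 0, against 21.9% and 20.3% of all tested genes. The 3 were Pnoc, Oprd1 and Oprl1. In bulk tissue, fewer cells of a type and less RNA per cell cannot be told apart.

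Pnoc had a slope of 2.58 (SE 0.48) log2 units per unit of the pan-neuronal mean, with an edgeR adjusted p of 0.00124. Oprd1 had a slope of 1.76 (SE 0.52), with an edgeR adjusted p of 0.0162. Oprl1 had a slope of 1.43 (SE 0.22), with an edgeR adjusted p of 3.01e-04. The 3 libraries of lowest pan-neuronal mean held the 3 lowest values of Pnoc and Oprd1; for Oprl1 they held the 2 lowest and the fourth lowest. Oprk1 had the 1 slope below 0, -0.56 (SE 0.28), which did not pass (edgeR adjusted p = 0.123), and 3 of its 4 highest values were in the 3 libraries of lowest pan-neuronal mean. Penk, Pomc and Oprm1 had slopes of 0.48 (SE 0.38), 0.35 (SE 0.24) and 0.59 (SE 0.57), none of which passed. With the 3 libraries poorest in pan-neuronal transcripts left out, 0 of the 7 slopes passed by edgeR, against 0.119% of all genes, while the slopes of Pnoc, Oprd1 and Oprl1 were 2.75 (SE 1.46), 1.59 (SE 1.16) and 1.72 (SE 0.63).

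**Figure D3:**
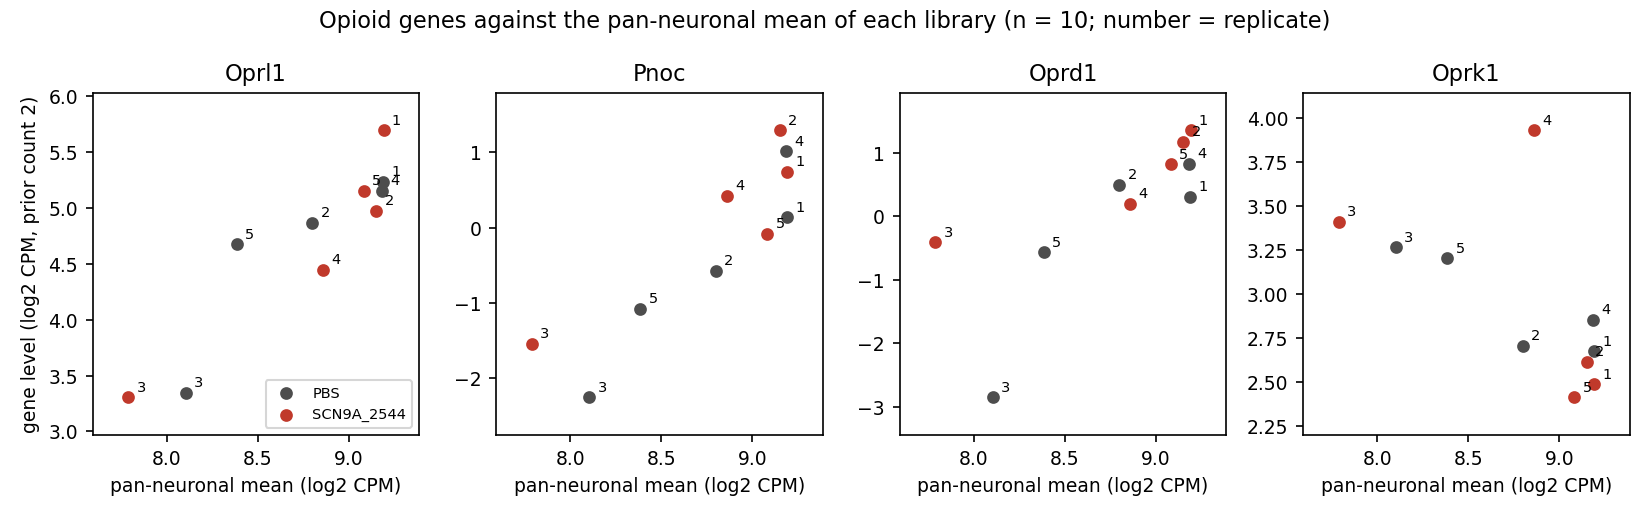
Log2 CPM (prior count 2) of Oprl1, Pnoc, Oprd1 and Oprk1 against the mean log2 CPM of 20 pan-neuronal genes in each of the 10 libraries, grey for PBS and red for SCN9A_2544, with replicate numbers beside the points. Oprl1, Pnoc and Oprd1 are low in replicate 3 of both groups, while Oprk1 is high there and highest in SCN9A_2544 replicate 4.

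The genes that make, store and cut opioid peptides were not called between the groups by the test over all genes. That test called 0 of the 15186 tested genes and did not call Scn9a, so it cannot show that these genes were unchanged. Of 13 tested genes of precursor processing and secretory granules, 6 had a log2 fold change above 0 and 7 below, with a median of -0.01, and 0 passed by edgeR. Vgf, a granule protein gene, had the smallest p: it ranged from 51.3 to 104 CPM in PBS and from 110 to 209 CPM in treated libraries. The Vgf groups did not overlap, and its estimate of 0.78 (SE 0.23) on the log2 scale did not pass (edgeR adjusted p = 0.963). Pcsk1 and Pcsk2 encode the convertases that cut opioid precursors. Pcsk1 ranged from 28.5 to 77.6 CPM in PBS and from 39.7 to 82.6 CPM after SCN9A_2544, and Pcsk2 from 39.0 to 89.3 and from 27.9 to 85.2 CPM. Pam, which amidates peptides, and Pcsk1n, which encodes an inhibitor of the first convertase, had log2 fold changes of -0.37 and 0.32. Of these 13 genes 10 had a slope on the pan-neuronal mean above 0 that passed by edgeR, Pcsk2 at 1.00 (SE 0.13) and the carboxypeptidase gene Cpe at 0.63 (SE 0.11) among them, and 0 had one below 0, against 21.9% and 20.3% of all tested genes. With the 3 libraries poorest in pan-neuronal transcripts left out, 0 of the 13 slopes passed, against 0.119% of all genes.

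Peptidases that can break down enkephalins and dynorphins split evenly. Of 13 tested, 7 lay above 0 and 6 below, with a median log2 fold change of 0.02, and 0 passed by edgeR. The 4 smallest p-values belonged to Thop1, Rnpep, Ace and Lnpep, with log2 fold changes of 0.33, 0.20, -0.43 and -0.15. Mme, which encodes neprilysin, an enkephalin-degrading enzyme, ranged from 10.4 to 46.9 CPM in PBS and from 8.39 to 75.9 CPM in treated libraries. Its 3 highest values were in the 3 libraries of lowest pan-neuronal mean, and its slope of -1.93 (SE 0.20) passed by edgeR (adjusted p = 3.68e-05). The peptidase slopes that passed went both ways. Of the 13 genes 2 had one above 0, Dpp3 at 0.55 and Npepps at 0.32. Below 0 there were also 2, Mme and, at -0.94, Ace. Over all tested genes 21.9% passed above 0 and 20.3% below. With those 3 libraries left out 0 of the 13 peptidase slopes passed, against 0.119% of all genes. The log2 fold change of Mme between groups was -0.12 (SE 0.60).

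The machinery below the receptors was not called either. Of 10 tested G protein genes 6 lay above 0, with a median log2 fold change of 0.04. Gnb2, Gnaz, Gnao1 and Gnai2 had the smallest p of these, with values of 0.20, 0.39, 0.36 and 0.06. Of 12 tested effector genes 10 lay above 0, with a median of 0.20, where 53.4% of all tested genes lay above 0. Adcy5, an adenylyl cyclase gene, had the smallest p, at 0.35 (SE 0.14), and did not pass (edgeR adjusted p = 0.963). Cacna1a, a calcium channel gene, Adcy3 and the potassium channel gene Kcnj9 followed at 0.43, 0.25 and 0.39. In these lists 0 genes passed by edgeR.

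Of 18 tested genes of receptor desensitization and trafficking, 14 lay above 0 and 4 below, with a median log2 fold change of 0.12. Over all tested genes 53.4% lay above 0, and 0 of the 18 passed by edgeR. Slopes on the pan-neuronal mean that passed by edgeR were above 0 for 11 of the 18 and below 0 for 1. Over all tested genes these shares were 21.9% and 20.3%. With the 3 libraries poorest in pan-neuronal transcripts left out, 0 of the 18 slopes passed, against 0.119% of all genes. Rgs19, a regulator of G protein signalling, averaged 14.1 ± 2.90 CPM (SD, n = 5) in PBS against 18.6 ± 1.72 CPM (SD, n = 5) after SCN9A_2544. Arrb1, encoding an arrestin that uncouples receptors, stood at 16.3 ± 6.44 and 24.1 ± 3.70 CPM (SD, n = 5 each). The receptor kinase gene Grk5 and the regulator gene Rgs9 had log2 fold changes of 0.41 and 0.63. The atypical receptor gene Ackr3, which binds opioid peptides, and the opioid growth factor receptor gene Ogfr had values of 0.02 and 0.06.

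Transcription factors and chromatin genes tied to the regulation of opioid genes made up a list of 26 tested genes, 18 above 0 and 8 below, with a median log2 fold change of 0.13, where 53.4% of all tested genes lay above 0. By edgeR 0 passed and 5 of the 26 had an unadjusted p under 0.05, against 4.23% of all tested genes. The list was chosen with earlier results of these data known, so this count and that of groups without overlap only describe it. Jun ranged from 106 to 138 CPM in PBS and from 149 to 289 CPM in treated libraries without overlap, and its log2 fold change was 0.74 (SE 0.18, edgeR adjusted p = 0.963). Stat3, a signalling-activated transcription factor gene, ranged from 208 to 293 CPM in PBS and from 300.0 to 336 CPM in treated libraries (0.37, SE 0.14), so 2 of the 26 genes had groups that did not overlap, against 0.665% of all tested genes. Fosb, Fos and Atf3 had log2 fold changes of 1.41, 1.57 and 1.42, with overlapping groups. Fos stood at 48.5 CPM in SCN9A_2544 replicate 3, at 7.55 to 12.5 CPM in the other treated libraries and at 4.10 to 9.06 CPM in PBS. Without that replicate its log2 fold change was 0.67, that of Fosb 1.08 and that of Atf3 1.18. Atf3 was highest in SCN9A_2544 replicate 4, and without that library its log2 fold change was 1.07. These genes are also immediate early or injury genes, and the macrophage markers, 9 of 10 of which lay above 0, were summed at 103 to 166 CPM in PBS and 186 to 347 CPM in treated libraries; the part of these cells in the values was not tested. Nfat5, an osmotic stress factor, and Kcnip3, which encodes the Pdyn repressor DREAM, had log2 fold changes of -0.31 (SE 0.19) and 0.03 (SE 0.32), and Rest, encoding a repressor of neuronal genes, one of 0.26 (SE 0.36). Of the 26 genes 15 had a slope on the pan-neuronal mean below 0 that passed by edgeR, against 20.3% of all tested genes. Above 0 it was 2, against 21.9%. Fos (-1.46), Atf3 (-1.34) and Jun (-0.39) were among the 15, while the slopes of Fosb and Stat3 did not pass. With the 3 libraries poorest in pan-neuronal transcripts left out, 0 of the 26 slopes passed, against 0.119% of all genes.

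**Figure D4:**
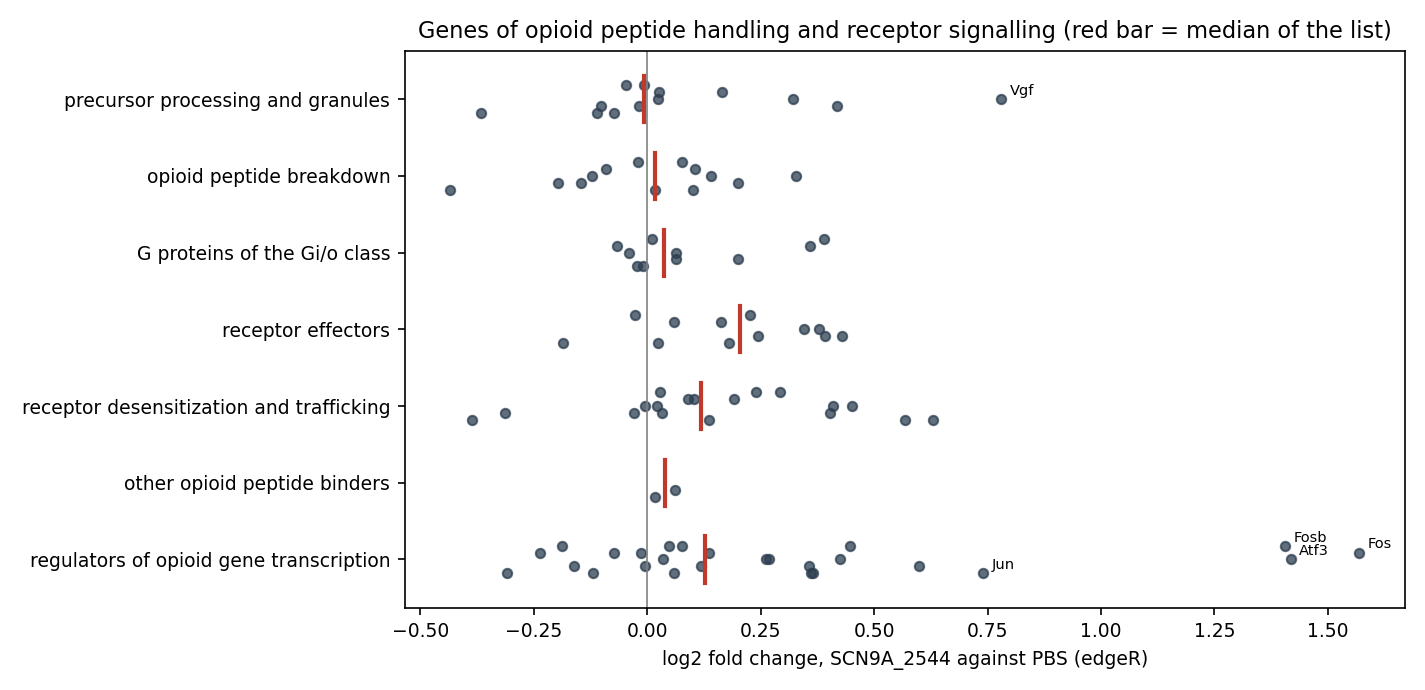
Log2 fold change (edgeR, SCN9A_2544 against PBS, 5 libraries each) of every tested gene of 7 lists of opioid peptide handling and receptor signalling, 1 point per gene, with a red bar at the median of each list. The medians lie between -0.01 and 0.20, and Fos, Atf3 and Fosb lie farthest from 0, at 1.57, 1.42 and 1.41; without SCN9A_2544 replicate 3 Fos is at 0.67.

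The 10 libraries differed in depth and in their neuronal and Schwann cell transcripts, and such differences act on many genes of a library together. Oprl1, Pnoc and Oprd1 had a Pearson r of 0.92, 0.89 and 0.77 with the pan-neuronal mean over these libraries. For the other tested members r lay between -0.60 (Oprk1) and 0.54 (Pomc). As a description, the genes whose levels ran most closely with each of the 7 tested members were ranked by Pearson correlation of log2 CPM. For Oprl1 these included Gabrg1 (r = 0.99) and Nts (0.98), and 502 tested genes had r over 0.9. For Pnoc they were Frmpd1, Cacng8 and Pianp (0.98 or 0.99 each), among 623 such genes, and for Oprd1 Reps1 (0.98), Ppargc1b and Sap30l (0.97 each), among 325. The number was far smaller for the other 4 tested members. Penk ran most closely with Mrpl57 (0.96), Lypd1 and the serotonin receptor gene Htr2c (0.95 each), among 12 genes over 0.9. PBS replicate 3 held Penk at 1.26 CPM, against 2.83 to 7.00 CPM in the other libraries. How far these Penk correlations rest on that library was not tested. Oprk1 ran with Eef1g (0.92), ENSRNOG00000070757 and Rab31 (0.91 each), among 4, and Pomc with Capn3 (0.94), Ankdd1b (0.93) and Bmp6 (0.90), among 3. Oprm1 had 0 genes over 0.9, and its closest were Ca3 (0.88), Ckm (0.84) and Acta1 (0.83), genes typical of skeletal muscle, which ranged from 0.734 to 9.98, from 1.16 to 25.7 and from 3.47 to 26.6 CPM.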

How the data were processed

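The authors deposited estimated counts per gene, not normalized; for the program that estimated them, the annotation and the strand setting: not given in the sources used here. Per the submitters' processing notes, STAR 2.7.10a, DESeq2 1.44.0 and the build mRatBN7.2 were used, with no role given. Values were rounded to whole numbers, since the design had assumed raw counts. Genes with low counts were removed with filterByExpr (minimum count 10, minimum total 15), TMM factors were applied, and edgeR 4.0.16 in R 4.3.3 gave quasi-likelihood F-tests with p-values adjusted after Benjamini and Hochberg across the 15186 genes tested. The standard error is the log2 fold change divided by the square root of F. Log2 CPM has a prior count of 2. Exact permutation tests used all 252 splits into 5 and 5, the smallest two-sided p being 0.00794. DESeq2 1.42.0, limma 3.58.1, other scalings, filters, covariates and left-out libraries were alternatives. The procedure was tested on simulated data. No pair of libraries agreed within sampling noise (chi-square per gene 7.70 to 219 over 45 pairs). Transcript lengths were not used here, so levels are not compared between genes. Members and lists were chosen with earlier results of these data known. Named genes are all members, Scn9a, up to 4 genes of smallest p per list and the 3 genes most like each member, of which 1 is not reported here; Mme, Atf3, Kcnip3, Nfat5, Rest, Pcsk2, Cpe, Ackr3, Ogfr and the markers Gfap, Gad1, Hoxc10, Mog, Chat, Gad2, Olig1 and Olig2, and Stat3, were named after their values were seen.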

Additional observations from a re-analysis of the deposited data

Results flagged for a closer look

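In 2 of the 16 groups of 5 libraries examined (8 members in PBS and in treated ganglia), 1 library lay far from the others by Dixon's criterion. For independent, normally distributed values chance alone meets it in about 1 group in 20. CPM on few counts, as for Pdyn, and genes read from the same libraries need not follow that rate. Penk in PBS replicate 3 stood at 1.26 CPM, while the other PBS libraries lay between 6.21 and 7.00 CPM. Pdyn in SCN9A_2544 replicate 4 stood at 1.70 CPM, while the other treated libraries lay between 0.136 and 0.404 CPM.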

How the results depend on the processing

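In the 20 alternatives 0 members passed, and all 20 Penk, Pomc and Oprd1 and all 19 Pnoc estimates kept their sign. Over all genes the number called was 0 as reported, 12 by DESeq2 and 1 each by limma voom with library weights (ENSRNOG00000070035), with the pan-neuronal or the Schwann cell mean as a covariate (Scn9a in both), and with the 3 libraries poorest in pan-neuronal transcripts left out (ENSRNOG00000070035). It was 0 to 1 with 1 library left out (Stac2 without SCN9A_2544 replicate 2, ENSRNOG00000070035 without SCN9A_2544 replicate 3). The 642 genes at an unadjusted p under 0.05 became 385 (without PBS replicate 5) to 3175 (limma voom with library weights). Signs turned for Oprk1 with limma voom (-0.11), and for Oprm1 and Oprl1 with the pan-neuronal (-0.039 and -0.070) and Schwann cell covariates (-0.059 and -0.20); the cause was not tested. With 1 library left out, log2 fold changes ran from -0.22 to 0.38 for Oprm1, -0.17 to 0.28 for Oprk1 and -0.17 to 0.31 for Oprl1. The differences in mean log2 CPM ran from -0.18 to 0.34 for Oprm1, -0.21 to 0.17 for Oprk1, -0.27 to 0.41 for Oprl1 and -0.49 to 0.13 for Penk. Same-numbered libraries did not deviate together in every pair (correlations -0.01 to 0.57, 2 of 5 best with their own number), so the numbers were not taken to pair the samples. With the replicate block 0 members and 0 genes passed, and Penk, Oprd1, Pnoc and Oprk1 had log2 fold changes of -0.10, 0.95, 0.83 and 0.03. Fewer than 35 counts per library for Oprm1, Oprd1, Pnoc and Pdyn limit what can be detected.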
